A study of Bos indicus with 11 samples.

Results

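Expression of 9 genes that control the use of pyruvate was described in endometrial biopsies, out of 24616 genes in the deposited table. The 9 genes were taken by their exact gene symbol, each matched 1 row, and all 9 were among the 15081 genes tested, those with a mean of at least 5 normalized counts over the cows. They are the 4 pyruvate dehydrogenase kinases (PDK1, PDK2, PDK3 and PDK4), the 2 pyruvate dehydrogenase phosphatases (PDP1 and PDP2), the 2 subunits of the first enzyme of the complex (PDHA1 and PDHB) and CPT1A, which admits fatty acids to mitochondria. The set was selected on the normalized counts of these same cows, with the difference between the groups in view. Their values by group are therefore a description, with no test.

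Biopsies were collected on day 6 after artificial insemination (AI) from 11 healthy, multiparous, non-lactating Nelore cows (Bos indicus) that were 4 to 10 years old, and RNA-Seq was done on each. All cows, in both groups, had their estrus synchronized with a prostaglandin F2α analogue, were inseminated at detected estrus and had a progesterone concentration within a narrow range, and each biopsy came from the uterine horn opposite to the ovary with the corpus luteum. A group of 6 cows was pregnant (P) and a group of 5 cows was non-pregnant (NP) at the diagnosis on day 30, so the groups were set by outcome and no treatment separates them. The diagnosis does not tell at which step a pregnancy failed, and a biopsy of the opposite horn holds all cell types of the tissue.

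The pyruvate dehydrogenase complex of the mitochondrion turns pyruvate, the product of glycolysis, into acetyl-CoA for the tricarboxylic acid cycle. The kinases phosphorylate and switch off its first enzyme, and the phosphatases switch it on again. PDK4 is the kinase best known for its response to fasting, glucocorticoids and fatty acids, through FOXO factors, the glucocorticoid receptor and PPARs, and insulin lowers it. When the complex is off, pyruvate is spared and fatty acids, which enter through CPT1A, are burned in its place. The endometrium uses glucose itself and also passes it to the embryo in its secretions.

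Between 9290949 and 13569085 reads were counted on genes per cow, and 1 read was worth 0.784 to 1.14 normalized counts. The fewest reads behind any value of the 9 genes were 88, for PDK1 in NP856, which gives a counting error of 10.7%. Epithelial markers of the endometrium were present in every cow, with EPCAM between 269 and 4719 normalized counts. Cows P617 and P1541 stood apart. Their smooth muscle marker level, the mean of log2(normalized count + 1) over 11 genes, was 15.00 and 14.65 against 11.42 to 14.00 in the other 9 cows, and their epithelium level was 7.81 and 9.46 against 9.67 to 11.06. The next cow on both levels was NP638, with 14.00 and 9.67, and it was kept with the others. The labels give P617 as pregnant and it was kept as P, although a supplementary list of the study names this cow as non-pregnant. Values without P617 and P1541 are also given for the 9 genes and for some of the named list genes and marker levels. Both cows are P, so these values change the P group only. Where the 2 cows lie at an end of the P cows, leaving them out moves the difference by construction.

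With the cows grouped by their labels, PDK4 (ENSBTAG00000014069) was higher in every NP cow than in any P cow. The P cows had between 259 (P2396) and 505 (P904) normalized counts of PDK4, with a median of 304. The NP cows had 540 in NP856, 613 in NP638, 929 in NP2810, 931 in NP238 and 1265 in NP2541. The gap between the groups was narrow, from P904 to NP856, while the highest NP cow was 4.88-fold above the lowest P cow. The mean was 337 ± 97.9 (SD, n = 6) in P and 855 ± 290 (SD, n = 5) in NP, which is 2.54-fold. The NP minus P difference fitted with limma on the log2(normalized count + 1) scale was 1.32 with a standard error of 0.25. At least 263 reads lay behind each value of PDK4, so counting error was at most 6.17%. The gap itself lies between P904 (527 reads, counting error 4.36%) and NP856 (502 reads, 4.46%). It is therefore not large beside counting error. Of the 9 genes, PDK4 was the 1 whose groups did not overlap, beside 1.09% of all genes tested. Nothing is read from that count, because the genes were chosen with this contrast in view.

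**Figure D1:**
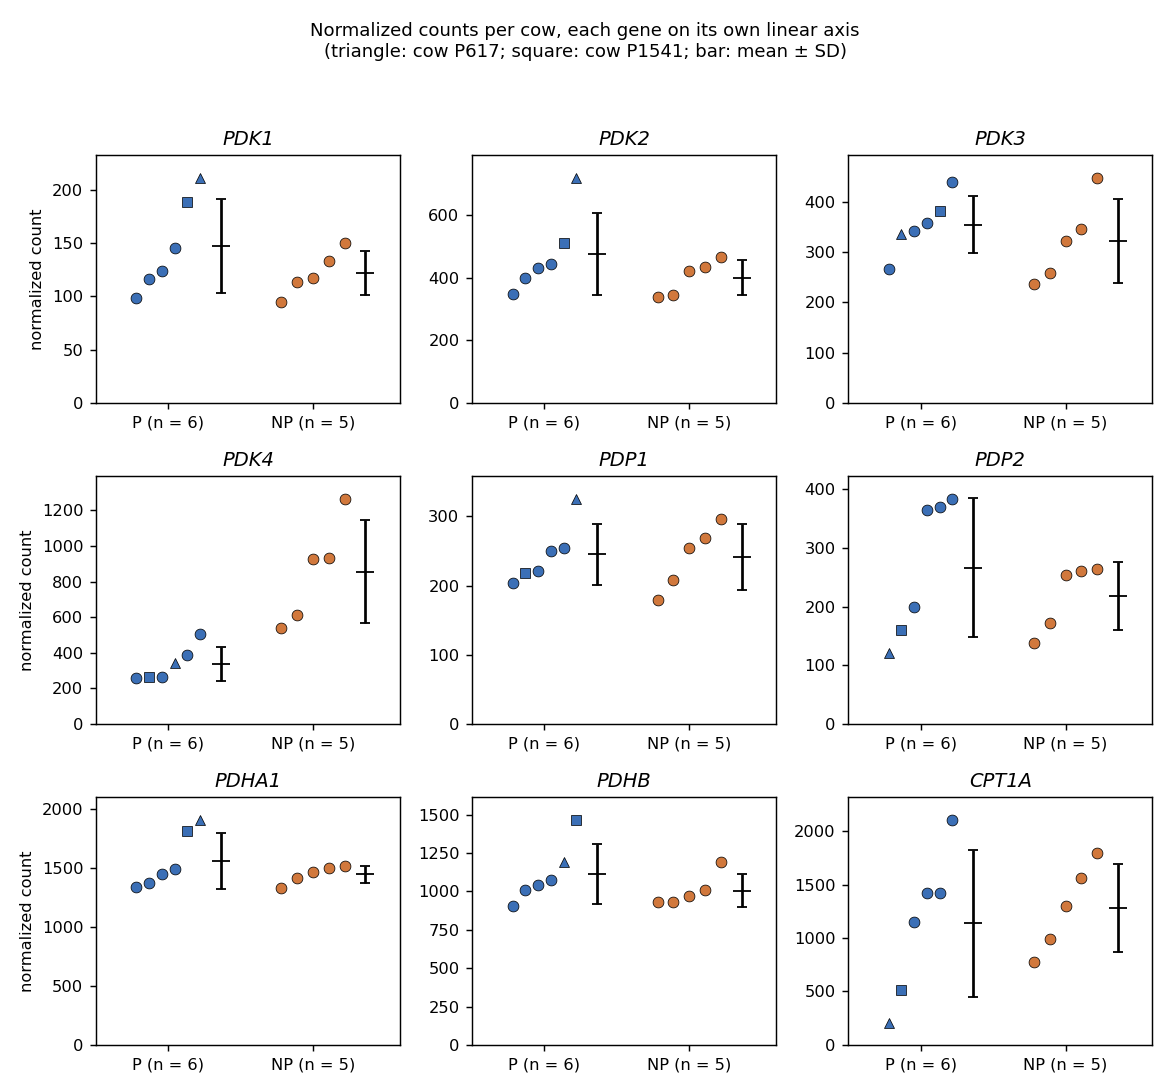
Normalized count of each of the 9 genes in each cow (vertical axes, 1 panel per gene, each with its own scale from 0), with P cows (blue) and NP cows (orange) sorted by value within each group, P617 as a triangle, P1541 as a square, and the mean ± SD of each group. PDK4 is the panel in which the points of the groups do not overlap, with P cows between 259 and 505 and NP cows between 540 and 1265, and in the PDHA1 and CPT1A panels the cows P617 and P1541 lie at an end of the range.

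The difference in PDK4 kept its direction in 24 of 24 alternative fits, from 1.08 to 1.47 on the log2 scale. Fits that leave out cows could not change its sign, because the groups do not overlap. The other fits use the same cows that chose the gene, so the count is a description. The difference was 1.26 with a standard error of 0.28 without cows P617 and P1541, and 1.13 with a standard error of 0.32 when P617 was taken as NP. With P617 as NP the groups would overlap, because its 343 normalized counts lay below those of P1631 (388) and P904 (505). The standard deviation of PDK4 within groups, pooled over both, was 0.44 on the log2 scale.

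The other 3 kinases, which respond less to fasting than PDK4, had overlapping groups. PDK1 (ENSBTAG00000016836), a kinase that hypoxia-inducible factor raises in other cells, had between 98.7 and 211 normalized counts in P, with a median of 135. The NP cows had 94.6 in NP856, 114 in NP2541, 118 in NP638, 134 in NP2810 and 150 in NP238. The highest PDK1 values were those of P617 (211) and P1541 (189). The means were 147 ± 44.0 in P and 122 ± 20.8 in NP, and the difference of -0.24 (SE 0.22) became 0.0065 (SE 0.19) without those cows.

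PDK2 (ENSBTAG00000008744), the kinase found in most tissues, had between 349 and 720 normalized counts in P, with a median of 437. Among NP cows it had 338 in NP856, 344 in NP238, 420 in NP2541, 433 in NP2810 and 466 in NP638. Again P617 (720) and P1541 (511) were the highest of the 11 cows. The difference of -0.22 (SE 0.18) was -0.025 (SE 0.13) without them.

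PDK3 (ENSBTAG00000017832), the kinase least held back by pyruvate, had between 267 and 440 normalized counts in P, with a median of 349. The counts in NP were 237 in NP238, 259 in NP638, 323 in NP856, 345 in NP2541 and 447 in NP2810. These values lay on both sides of the P cows, and the difference was -0.16 (SE 0.18). Cows P617 and P1541 were not at an end of the range for PDK3, and the difference without them was -0.14 (SE 0.21).

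The counts of the 4 kinases were also added up within each cow. PDK4 made up 25.7% ± 5.97 (SD, n = 6) of the sum in P, between 19.5% and 33.2%. In NP it made up 49.3% ± 7.92 (SD, n = 5), between 41.7% and 59.0%. The PDK4 share in P617, the cow with conflicting labels, was 21.3%, so the groups would overlap with this cow as NP. The share depends on the lengths of the transcripts, which were not used here, so it compares cows and not kinases. The sum of the 4 kinases was 1314 ± 220 normalized counts in P and 1699 ± 347 in NP, and without PDK4 it was 977 ± 185 in P and 844 ± 113 in NP. In the 4 P cows other than P617 and P1541, the sum without PDK4 was 878 ± 111 and the PDK4 share was 28.3% ± 5.55. The share of PDK2 was 35.9% ± 5.42 in P and 24.1% ± 5.04 in NP. The 4 shares make up the whole, so a higher share of PDK4 lowers the other shares without a change in those genes.

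**Figure D2:**
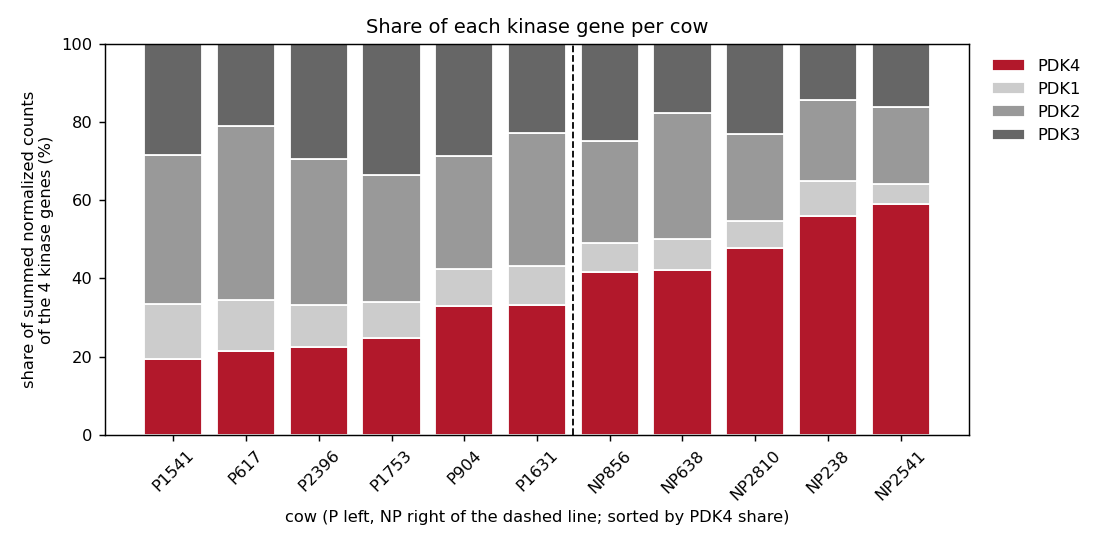
Share of each pyruvate dehydrogenase kinase in the summed normalized counts of the 4 kinases, in percent of the sum (vertical axis), for each cow (horizontal axis, P cows first). The PDK4 part lies between 19.5% and 33.2% in the P cows and between 41.7% and 59.0% in the NP cows.

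The phosphatases counteract the kinases, and neither separated the groups. PDP1 (ENSBTAG00000000199), the phosphatase that calcium activates, had between 203 and 325 normalized counts in P, with a median of 236. Its NP values were 179 in NP2810, 208 in NP2541, 254 in NP638, 269 in NP856 and 296 in NP238. The difference was -0.03 (SE 0.17), or 0.037 (SE 0.17) without P617 and P1541, and its sign changed in 7 of 24 alternatives.

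PDP2 (ENSBTAG00000046708), the phosphatase that insulin raises in other tissues, had between 121 and 384 normalized counts in P, with a median of 282. The NP cows had 139 in NP2810, 172 in NP2541, 254 in NP638, 261 in NP856 and 265 in NP238. The P cows themselves formed a wide range, from P617 with 121 and P1541 with 161 up to P1631 with 384. The difference of -0.20 (SE 0.34) was -0.59 (SE 0.26) without those 2 cows, where the 4 remaining P cows had a mean of 329 ± 87.1 against 218 ± 58.7 in NP. P617 and P1541 were the lowest P cows, so leaving them out raises the P mean by construction. NP2810, with 139, was kept.

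The ratio of PDK4 to the summed phosphatases in a cow was 0.700 ± 0.307 in P and 2.03 ± 1.04 in NP. It ran from 0.419 to 1.25 in P and from 1.02 to 3.33 in NP, so the groups overlapped in this ratio.

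The subunits of the first enzyme, which the kinases phosphorylate on the alpha subunit, varied least among the 9 genes. PDHA1 (ENSBTAG00000019852), the alpha subunit, had between 1335 and 1906 normalized counts in P, with a median of 1472. Among NP cows it had 1332 in NP2541, 1413 in NP638, 1461 in NP238, 1501 in NP856 and 1515 in NP2810. The cows P617 (1906) and P1541 (1808) were the highest, and the remaining 9 cows lay within 1.14-fold of each other. The difference of -0.10 (SE 0.11) was 0.031 (SE 0.082) without them.

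PDHB (ENSBTAG00000021724), the beta subunit, had between 902 and 1465 normalized counts in P, with a median of 1056. The counts in NP were 931 in NP2541, 931 in NP856, 967 in NP238, 1008 in NP638 and 1190 in NP2810. P1541 (1465) and P617 (1192) were again the highest. The difference was -0.14 (SE 0.13) and -0.0027 (SE 0.10) without them. The ratio of PDHA1 to PDHB was 1.42 ± 0.179 in P and 1.45 ± 0.126 in NP.

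CPT1A (ENSBTAG00000021999), the carnitine palmitoyltransferase of the outer mitochondrial membrane, had the widest range of the 9 genes, 10.2-fold. It had between 207 and 2106 normalized counts in P, with a median of 1290. Its NP values were 777 in NP2810, 988 in NP638, 1296 in NP2541, 1564 in NP856 and 1792 in NP238. The lowest cows were P617 (207) and P1541 (512), and without them the range was 2.71-fold. The difference of 0.45 (SE 0.53) turned to -0.28 (SE 0.25) without these cows. CPT1B, the form of this enzyme known from muscle, was also lowest in P617 (65.5) and P1541 (217), with 308 to 674 in the other 9 cows. The part of the smooth muscle and epithelium levels of these cows in these values was not tested.

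**Figure D3:**
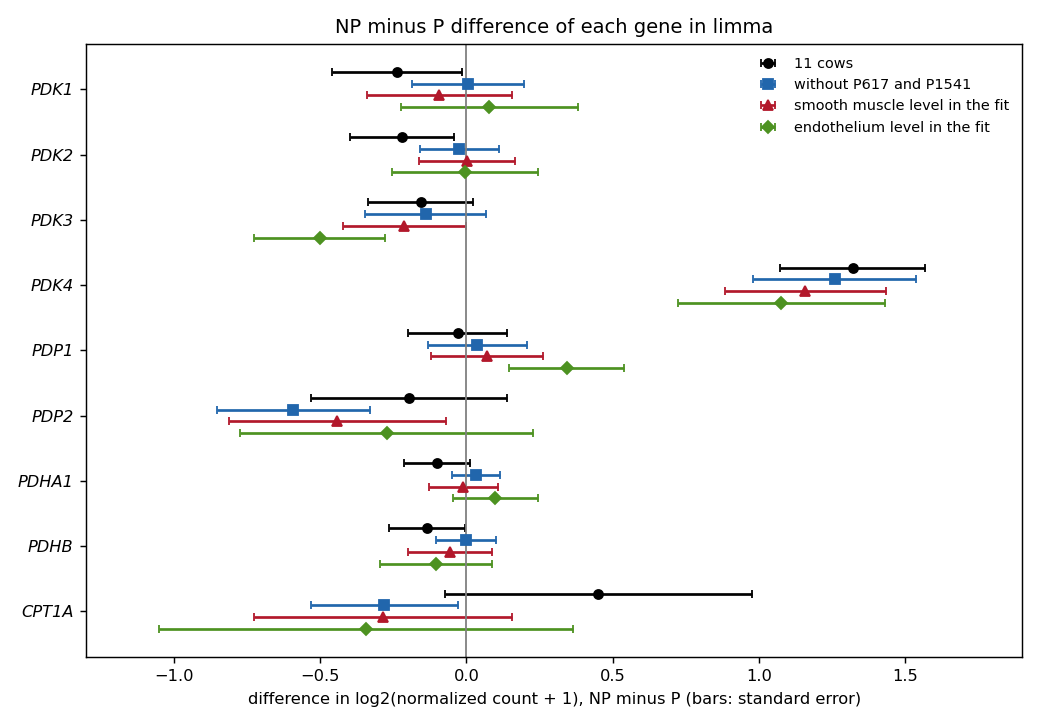
NP minus P difference of each of the 9 genes on the log2(normalized count + 1) scale (horizontal axis), with bars of 1 standard error, for all 11 cows, without P617 and P1541, and with the smooth muscle or the endothelium marker level in the fit. PDK4 stays between 1.08 and 1.32 in the 4 fits, whereas CPT1A is at 0.45 with all cows and below 0 in the other 3.

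The wider pathway was described by 9 lists of genes. They hold 131 symbols, of which 116 genes were tested. With limma, 0 of the 116 genes passed an adjusted p-value of 0.1, as did 0 of all 15081 genes (0% of them). At an unadjusted p under 0.05 there were 10 genes higher in NP and 5 higher in P, together 12.9% of the listed genes, beside 7.84% of all genes (5.49% higher in NP and 2.35% higher in P). The edgeR quasi-likelihood test on the recovered reads also called 0 of the 116 genes, with 13 at an unadjusted p under 0.05 (7.63% of all genes), and DESeq2 called 4 (DUSP1, SESN3, SUCLA2 and ZBTB16), beside 1.33% of all genes. The listed genes were split evenly, with 58 differences above 0 and 58 below, and their median was 0.0020 beside 0.0018 for all genes. The counts within single lists that follow are given beside these same shares of all genes, with no test of a list.

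**Figure D4:**
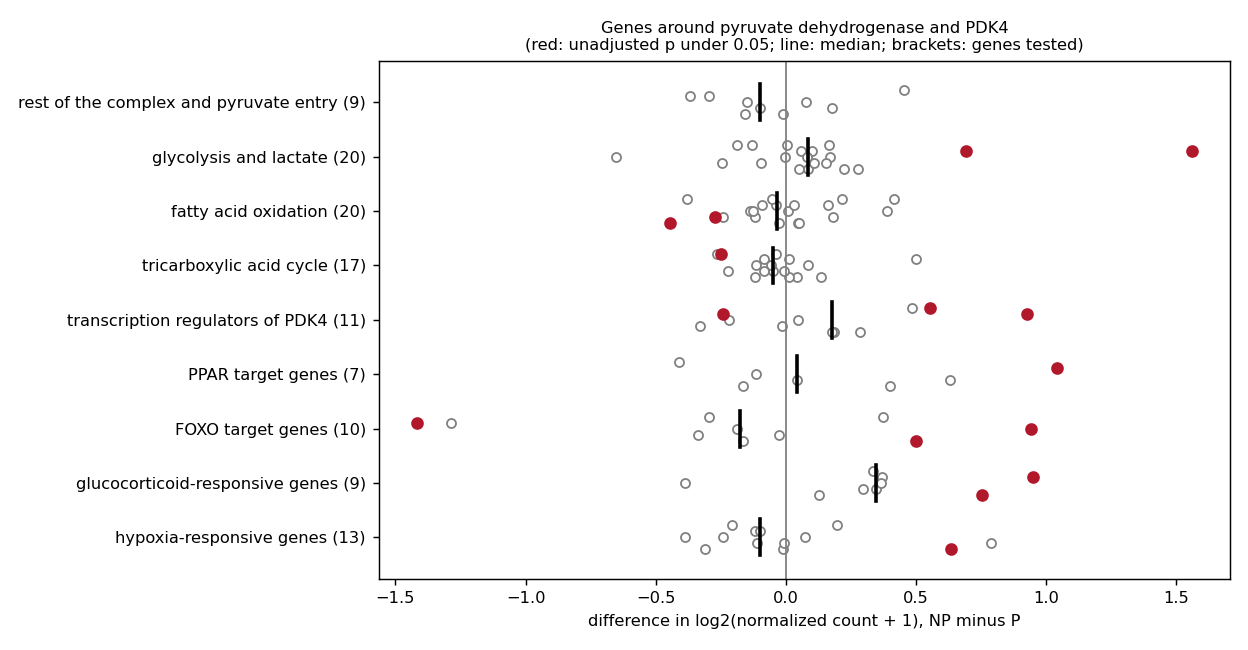
NP minus P difference on the log2(normalized count + 1) scale (horizontal axis) for every tested gene of the 9 pathway lists (rows), with a line at the median of each list and the genes at an unadjusted p under 0.05 in red. The median is 0.35 for glucocorticoid-responsive genes and lies between -0.18 and 0.18 for the other 8 lists.

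In the rest of the complex and the entry of pyruvate, 0 of 9 tested genes reached an unadjusted p under 0.05 in limma, and the median difference was -0.10. DLAT and DLD, which encode its other catalytic enzymes, had differences of -0.16 (SE 0.20) and -0.10 (SE 0.12). LIPT1 and LIPT2, which take part in supplying such complexes with lipoic acid, had differences of -0.37 (SE 0.22) and 0.45 (SE 0.46), and of -0.15 and 0.23 without P617 and P1541.

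Of the glycolysis and lactate genes, 2 of 20 had an unadjusted p under 0.05, both higher in NP, and the median difference was 0.08. SLC16A3, a lactate exporter, had 82.6 ± 29.3 normalized counts in P and 136 ± 54.4 in NP (limma, difference 0.69, adjusted p = 0.604). ENO2, an enolase best known from neurons, had 74.8 ± 51.2 in P and 164 ± 58.8 in NP (difference 1.56, adjusted p = 0.637), and its lowest value, 5.65, was that of P617. Without P617 and P1541 the difference of ENO2 was 0.59 (SE 0.33, unadjusted p = 0.102 in limma). GPI, the enzyme that isomerizes glucose 6-phosphate, differed by 0.22 (SE 0.15). LDHA and LDHB, the subunits of lactate dehydrogenase, had differences of 0.10 (SE 0.35) and 0.0070 (SE 0.16).

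Of the fatty acid oxidation genes, 2 of 20 had an unadjusted p under 0.05, both higher in P. HADH, a dehydrogenase of beta-oxidation, had 1969 ± 223 normalized counts in P and 1482 ± 421 in NP (limma, difference -0.44, adjusted p = 0.514). ETFA, which takes up electrons from acyl-CoA dehydrogenases, had 1098 ± 119 in P and 914 ± 140 in NP (difference -0.27, adjusted p = 0.594). In both genes NP2810 lay far above the other NP cows, with 2154 of HADH and 1163 of ETFA. ACADVL, which starts the oxidation of long fatty acids, differed by 0.22 (SE 0.12), or 0.10 without P617 and P1541, and CPT2, the partner of CPT1A on the inner membrane, by -0.04 (SE 0.13).

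In the tricarboxylic acid cycle, 1 of 17 genes had an unadjusted p under 0.05. This was SUCLA2, a subunit of succinyl-CoA synthetase. Its P cows had between 1214 and 1476 normalized counts, with a median of 1348. Its NP cows had 1059, 1078, 1090, 1139 and 1229, of which only the highest, NP856, reached the range of the P cows. The difference was -0.25 (SE 0.085), with an adjusted p of 0.459 in limma and of 0.0858 in DESeq2. PC, the carboxylase that sends pyruvate to oxaloacetate, and IDH3G, a subunit of isocitrate dehydrogenase, had differences of -0.26 (SE 0.18) and -0.22 (SE 0.17), and that of IDH3G was -0.015 without P617 and P1541.

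Among 11 tested regulators of PDK4 transcription, 2 were higher in NP and 1 was higher in P at an unadjusted p under 0.05. NR3C1, the glucocorticoid receptor, had between 99.4 and 143.70 normalized counts in P, with a median of 110. The NP cows had 143.73, 152, 167, 184 and 213. Every NP cow was thus above every P cow, but P904 and NP2810 differed by less than the worth of 1 read. NR3C1 was the 1 gene of the 116 listed with this order, beside 0.855% of all genes tested, so nothing is read from it. With P617 (99.4) taken as NP, the groups would overlap. The difference was 0.56 (SE 0.17), with an unadjusted p of 0.00726 and an adjusted p of 0.400 in limma. PPARG, a fatty acid receptor, had 46.4 ± 22.6 in P and 82.8 ± 24.2 in NP (difference 0.93, adjusted p = 0.543). KLF15, a transcription factor induced by fasting and glucocorticoids, had 852 ± 65.8 in P and 721 ± 62.5 in NP (difference -0.24, adjusted p = 0.535). FOXO1 and PPARA, best known for raising PDK4 in muscle and liver, had differences of -0.33 (SE 0.39) and -0.01 (SE 0.35).

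Other genes that such factors raise were then set beside PDK4. Of 9 glucocorticoid-responsive genes, 8 had a difference above 0, beside 7577 of all 15081 genes. In limma 2 of the 9 reached an unadjusted p under 0.05, both higher in NP, beside 5.49% of all genes higher in NP. ZBTB16, a zinc finger protein, had between 84.2 and 142 normalized counts in P, and 139, 153, 212, 270 and 323 in NP. The lowest NP cow, NP2541, was below the highest P cow, P617. The difference of ZBTB16 was 0.95 (SE 0.25), with an adjusted p of 0.323 in limma and of 0.0279 in DESeq2. DUSP1, a phosphatase of MAP kinases, had between 628 and 1370 in P, and 1172, 1416, 1437, 1650 and 2040 in NP, and 4 of 5 NP cows were above all P cows. Its difference was 0.75 (SE 0.20), with an adjusted p of 0.320 in limma and of 0.0722 in DESeq2. FKBP5, a co-chaperone of the glucocorticoid receptor, was the 1 gene of the list with a difference below 0, with 5633 ± 1073 in P and 4305 ± 915 in NP (limma, difference -0.39, adjusted p = 0.660).

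FOXO target genes had differences on both sides of 0. Of 10 tested, 2 were higher in NP and 1 was higher in P at an unadjusted p under 0.05, and the median was -0.18. SESN3, a stress-induced sestrin, had between 91.9 and 236 normalized counts in P, and 217, 261, 276, 278 and 308 in NP, with 4 of 5 NP cows above all P cows. Its difference was 0.94 (SE 0.25), with an adjusted p of 0.323 in limma and of 0.0873 in DESeq2. Without P617 and P1541 the difference of SESN3 was 0.69 (SE 0.22). INSR, the insulin receptor, differed by 0.50 (adjusted p = 0.434). FBXO32, a ubiquitin ligase of muscle wasting, had 696 ± 551 in P and 237 ± 142 in NP (difference -1.42, adjusted p = 0.487), and the highest value, 1745, was that of P617. Without P617 and P1541 the difference of FBXO32 was -0.92 (SE 0.43, unadjusted p = 0.0586 in limma).

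Of 7 tested PPAR target genes, 1 had an unadjusted p under 0.05. ANGPTL4, an inhibitor of lipoprotein lipase, had 72.4 ± 30.4 normalized counts in P and 150 ± 65.2 in NP (limma, difference 1.04, adjusted p = 0.459). PLIN2, which coats lipid droplets, and UCP2, a mitochondrial carrier, had differences of 0.40 (SE 0.33) and 0.63 (SE 0.58), and of 0.14 and -0.14 without P617 and P1541. Of 13 hypoxia-responsive genes, 1 had an unadjusted p under 0.05. NDRG1 had 948 ± 346 in P and 1454 ± 505 in NP (difference 0.63, adjusted p = 0.564). SLC2A1, a glucose transporter, and MXI1, a repressor of MYC targets, had differences of -0.24 (SE 0.11) and 0.20 (SE 0.099).

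Marker levels of other cell types were set beside PDK4, and none of 8 lists passed an adjusted p of 0.1 with all cows and the mean over a list's genes. The endothelium list passed with the median over its genes (adjusted p = 0.0866), without P1541 (0.0952) and without P904 (0.0635), the stroma list without P1541 and without both P617 and P1541 (0.0635 in each), the immune cell list without P904 (0.0635), and the epithelium list, with its sign turned, without both cows (0.0635), all by exact permutation tests. P617 and P1541, both P, had the lowest epithelium levels, so leaving them out lowers the epithelium difference by construction. Nothing is read from the p-value of that list without them. In bulk tissue, fewer cells of a type and less RNA per cell cannot be told apart. The endothelium marker level was 9.37 ± 0.52 in P and 10.20 ± 0.33 in NP on the mean log2 scale, a difference of 0.83 (two-sided exact permutation test over cows, p = 0.0173, adjusted p = 0.110 over 8 lists, where the smallest p the design allows is 0.00216). All 10 of its genes were higher in NP, 9 of them at an unadjusted p under 0.05 in limma, and their summed level was between 4982 and 15350 normalized counts in P and between 9329 and 16863 in NP. The stroma level, over 9 genes, differed by 0.60 and the immune cell level, over 10 genes, by 0.66 (exact permutation test, p = 0.0303 and 0.0411, adjusted p = 0.110 for both), and all genes of both lists were higher in NP. Their summed levels ran from 127832 to 372269 in P and from 263387 to 363098 in NP for stroma, and from 481 to 1095 and from 817 to 1823 for immune cells. The smooth muscle level, over 11 genes, differed by -1.20 (exact permutation test, p = 0.110, adjusted p = 0.221), with 11 of 11 genes lower in NP on average and a summed level of 88511 to 687589 in P and 45606 to 297000 in NP. Without P617 and P1541 the smooth muscle difference was -0.55 (exact permutation test, adjusted p = 0.508), and it was -1.62 to -0.90 when 1 cow was left out. P617 and P1541 had the highest smooth muscle levels, so leaving them out shrinks that difference by construction.

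The epithelium level differed by 0.14, the pericyte level by 0.39, the adipocyte level by -0.0088 and the skeletal muscle level by -0.29 (exact permutation test, adjusted p = 0.970, 0.253, 0.978 and 0.678). By the median over its genes the pericyte difference was 0.74 (exact permutation test, adjusted p = 0.170), with 5 of 6 genes higher in NP and a summed level of 2839 to 6376 in P and 6112 to 7325 in NP. Without P617 and P1541 the differences were -0.46 for epithelium, 0.64 for pericytes and 0.033 for skeletal muscle. PDK4 is known to be abundant in fat and skeletal muscle. The adipocyte list had 4 of 6 genes tested and a summed level of 404 to 1185 in P and 277 to 1005 in NP. LEP was at 0 in all cows and ADIPOQ between 0 and 10.2 normalized counts, while PLIN4 was between 26.5 and 1030, and CIDEA between 6.78 and 61.3 in P and 48.7 and 78.9 in NP. The 4 tested adipocyte genes went both ways, with differences of -1.78 for PLIN4, 1.41 for CIDEA, 0.28 for PLIN1 and 0.05 for LIPE. The adipocyte level difference of -0.0088 is the mean of these and does not show equal amounts of fat. Skeletal muscle genes had a summed level of 32.6 to 339 in P and 26.9 to 91.3 in NP, with MYH1, MYH2 and MYL1 at 0 in all cows and ACTA1 between 7.06 and 290. The part of either cell type in the PDK4 difference was not tested. None of the 6 rows for erythroid genes passed the minimum mean.

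With the endothelium level in the fit, the PDK4 difference was 1.08 (SE 0.35), and with the smooth muscle level it was 1.16 (SE 0.28). It was 1.31 with the epithelium level and 1.37 with the stroma level. P904, the P cow with the highest PDK4, had an endothelium level of 10.23, within the range of the NP cows. NP238 had a level of 9.65, within the range of the P cows, and 931 normalized counts of PDK4, the second highest of the 11 cows.

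**Figure D5:**
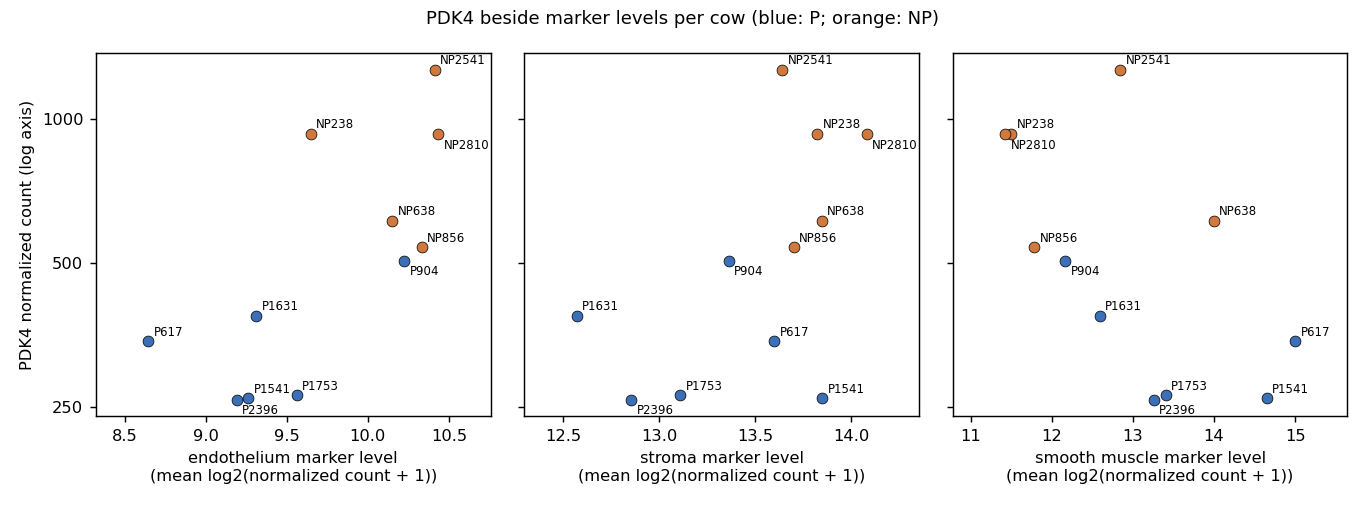
PDK4 normalized count (vertical axes, log scale) against the endothelium, stroma and smooth muscle marker levels (horizontal axes, mean log2(normalized count + 1) over each list) in each of the 11 cows, with P cows in blue and NP cows in orange. P904 has the highest PDK4 of the P cows (505) and an endothelium level of 10.23, and P617 and P1541 are the cows with the highest smooth muscle levels (15.00 and 14.65).

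Within the groups, PDK4 was compared across cows with the other 8 genes and 8 marker levels, after the group mean was taken off each value, in 16 relations. None had a permutation p under 0.05, and the smallest adjusted p was 0.874 for Pearson's r and 0.856 for Spearman's rho. For the immune cell level, which had the largest r in size, r was 0.42 and rho 0.18 (permutation test, p = 0.243 and 0.638), and r was 0.35 without the 2 cows farthest from its median. For PDP2, r was -0.33 and rho -0.10 (permutation test, p = 0.317 and 0.760), r was -0.34 without the 2 cows farthest from its median, and r was -0.69 without P617 and P1541 (permutation test, p = 0.0978, adjusted p = 0.672). For PDP1, r was -0.41 and rho -0.48 (permutation test, p = 0.255 and 0.187), and r was -0.62 without the 2 cows farthest from the median of PDP1. For the endothelium level, r was 0.30 and rho 0.31 (permutation test, p = 0.377 and 0.359), and r was 0.39 without the 2 cows farthest from its median. For the smooth muscle level, r was -0.36 and rho -0.46 (permutation test, p = 0.303 and 0.168), and r was -0.37 without the 2 farthest cows, P617 and P1541. For CPT1A, r was 0.12 and rho 0.24 (permutation test, p = 0.734 and 0.435), and r was 0.11 without the same 2 cows. With the group means left in, which carries the contrast that chose PDK4, r with the endothelium level was 0.72, with the immune cell level 0.70 and with the smooth muscle level -0.60, as a description.

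Of 12240 genes with a mean of at least 50 normalized counts, those most like PDK4 over the 11 cows were a histone H2B row that several symbols share (ENSBTAG00000031778, r = 0.93), METTL19 (0.91), PDGFRB (0.91), the row ENSBTAG00000012615 (0.91) and PLXND1 (0.90). These values carry the difference between the groups. PDGFRB, the growth factor receptor of pericytes and stroma, had 1518 ± 207 normalized counts in P and 2662 ± 283 in NP. PLXND1, a semaphorin receptor known from endothelium, had 827 ± 200 in P and 1385 ± 91.7 in NP. After the group means were taken off, those most like PDK4 were BPHL (0.89), TXNIP (0.85), BET1 (0.85), FBXW4 (0.83) and the row ENSBTAG00000001219 (0.80). TXNIP, a glucose-responsive protein that also stands in the FOXO list, had 13373 ± 1918 in P and 17737 ± 4854 in NP. It was lowest in P1541 (10774) and highest in NP2541 (23616), the cow that was also highest for PDK4. The likeness is the largest of many and rests on 11 cows, so it is given as a description with no p-value.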

How the data were processed

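RNA-Seq of endometrial biopsies from 6 P and 5 NP cows was used, each cow being 1 replicate. The authors filtered the reads with Seqyclean and, per the submitters' processing notes, CASAVA 1.8.2, Bowtie2 2.1.0 (masked UMD3.1), HTSeq 0.5.4p2 and DESeq2 1.12.1 were used. The deposited table holds normalized counts (unit: signal), which are read counts that the authors scaled for each cow with a DESeq2 size factor. The annotation and the use of strand are not given in the sources used here, so overlapping genes and near-identical copies are uncertain. In all 11 cows 100% of the values were whole multiples of 1 read within 0.01 reads, so reads were recovered, 9290949 to 13569085 per cow. Intervals of counting error cover counting only.

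Groups came from the labels. Differences are NP minus P, fitted with limma 3.58.1 (trend) in R 4.3.3 on log2(value + 1), which understates changes of low genes, for 15081 genes with a mean of at least 5, with the Benjamini-Hochberg adjustment at 0.1. For marker levels, exact permutation tests (two-sided) were run over cows, and for relations across cows 100000 permutations within groups were drawn. edgeR 4.0.16, DESeq2 1.42.0 and limma-voom on the recovered reads, other scalings (TMM, upper quartile), a pseudocount of 0.5, no filter, marker levels as covariates, P617 as NP and leaving out cows were alternatives. The limma and edgeR tests of genes were tried on simulated counts, and DESeq2 and limma-voom were not.

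The 9 genes and all lists were chosen with earlier results of these data known. The genes named are the 9 genes, of each pathway list those past the threshold and the 3 with the smallest unadjusted p in limma, and the 5 genes most like PDK4 on each scale. The values of 1 gene that this rule names are not reported here. A few further list members (DLAT, DLD, LDHA, LDHB, CPT1B, CPT2, FOXO1 and PPARA) were named after their values were seen. Sequences, transcript lengths and coordinates were not used here.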

Additional observations from a re-analysis of the deposited data

Results flagged for a closer look

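In 94 groups of cows tested with Dixon's criterion, 6 held a cow far from the rest, and chance gives about 1 in 20. The number found is close to that share, and the groups share the same cows, so the 6 are listed as a description. Cow P1541 had the highest skeletal muscle marker level of the P cows, 4.93 against 2.94 to 3.67 in the others, and the highest ETFA, 1328 normalized counts against 993 to 1117. Cow NP2810 was highest among the NP cows for ETFA, with 1163 against 837 to 860, and for NDRG1, with 2346 against 1139 to 1315. Cow P617 was highest among the P cows for FBXO32, with 1745 against 227 to 722. Cow P1753 was lowest among the P cows for FKBP5, with 3609 against 5528 to 6669. None of the 9 genes of pyruvate control met this criterion in either group.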

How the results depend on the processing

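The PDK4 difference, whose sign could not change by leaving out cows, kept its direction in all 24 alternatives (1.08 to 1.47, and 1.16 to 1.47 when 1 cow was left out). Those of PDK3 and PDHB also kept theirs, whereas the sign changed in 3 alternatives for PDK1, 2 for PDK2, 7 for PDP1, 1 for PDP2, 3 for PDHA1 and 4 for CPT1A. With the stroma level in the fit, a covariate chosen after seeing the data, as was endothelium, CPT1A differed by 1.66 and PDP2 by 0.58. The number of genes called was 0 with limma (1182 at an unadjusted p under 0.05), 201 with DESeq2, 0 with edgeR (1151 at an unadjusted p under 0.05), 17 without P617 and P1541, 117 with the epithelium level in the fit, 2187 with the stroma level and 0 to 171 when 1 cow was left out, where 171 was without P904. The cause was not tested. Of the pathway genes at an unadjusted p under 0.05, the 10 higher in NP became 5 with the smooth muscle or the endothelium level and 16 with the stroma level, and 7 to 10 when 1 cow was left out. The 5 higher in P became 3 with P617 as NP, 2 with the endothelium level, 24 with the stroma level, and 2 (without NP856) to 8 (without NP2810) when 1 cow was left out. It was 3 without P1631, NP238 or NP2541. Without P617 and P1541, an alternative added after seeing the data, the epithelium difference turned to -0.46 (exact permutation test, adjusted p = 0.0635) and the stroma difference was 0.85 (adjusted p = 0.0635). P617 and P1541 were set apart by their epithelium and smooth muscle levels, so leaving them out lowers the epithelium difference by construction. The endothelium difference was 0.80 with the median over its genes (adjusted p = 0.0866). When 1 cow was left out it was 0.68 to 1.00 (1.00 without P904), the stroma difference 0.46 to 0.72, the immune cell difference 0.46 to 0.81 and the epithelium difference -0.27 to 0.38. No paired analysis was possible because each cow carries a number of its own, shared with no cow of the other group. Genes with few reads per cow are limited by counting error.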

Other observations

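Other forms of these enzymes were looked at after their values were seen. PDHA2, the alpha subunit known from testis, had 0 reads in every cow, which allows up to 3 reads per cow. CPT1C, the form of CPT1 known from neurons, had between 89.2 and 201 normalized counts in P, with a median of 101, and 118, 166, 184, 212 and 228 in NP. The groups overlapped, and the difference was 0.64 (SE 0.24, adjusted p = 0.522 in limma).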
